A study of Mus musculus with 8 samples.

Results

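The long noncoding RNAs (lncRNAs) that are expressed in the mouse mammary epithelium of mid pregnancy were examined in libraries from 4 control and 4 Bmpr1a conditional knockout (cKO) mice. The members were selected on their measured level: a row of the deposited table belonged to the set when its biotype was lncRNA, its mean FPKM over the 8 libraries was 1 or more, it did not lie on chromosome X or Y, and its name was not H19 or Meg3. The group labels played no part in that mean, but the levels themselves are given as a description, with no test. Of the 55933 rows of the table, 10209 carry the biotype lncRNA, 477 of those reach a mean of 1, and 464 remained after 13 rows were left out by chromosome or name. FPKM, fragments per kilobase of gene and per library size, is a level per length, so it can be compared between genes, while a comparison between libraries also depends on the scaling. The cKO mice carry K14-rtTA, teto-Cre and Bmpr1a fl/fl, so that doxycycline in the drinking water switches on Cre in cells with an active K14 promoter, which in this gland are the basal or myoepithelial cells. Littermates served as controls, and their labels read WT; which of these alleles they carried and whether they drank doxycycline is not given in the sources used here. All were C57BL/6 females at pregnancy day 14.5, and the cells were a whole digest of the gland by collagenase and hyaluronidase from which fat and red cells had been removed, not a sorted layer.

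lncRNAs are transcripts without a long open reading frame. Some remain in the nucleus and build nuclear bodies, some are spliced only to release small nucleolar RNAs (snoRNAs) or microRNAs (miRNAs) from their introns or exons, some arise from the promoter of a coding gene and run the other way, and many have no described function. BMPR1A is a type I receptor for bone morphogenetic proteins, which signal through Smad1/5 and Smad4. In the pregnant gland, luminal cells turn into milk-producing alveolar cells under prolactin and STAT5, and myoepithelial cells surround them.

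The table's label covers more than intergenic genes. In GENCODE vM21, 178 of the 464 lncRNAs are antisense genes, 164 are long intergenic RNAs, 66 processed transcripts, 24 bidirectional-promoter lncRNAs, 22 sense-intronic, 3 sense-overlapping and 1 a macro lncRNA. A further 4 (Gm10382, AW011738, Gm9887 and Gm10762) are protein-coding there, and 2 are not in that release. Relative to protein-coding genes at 0.5 FPKM or more, 114 start within 1 kb of a coding start on the other strand, 149 others overlap a coding gene on the other strand and 38 on the same strand, 76 lie within 10 kb of a coding gene and 87 lie farther away. An exon of 189 members shares bases with another expressed gene. Counting by strand is not stated for these data, so reads of a member and of a gene that overlaps it cannot be told apart, and shared exon bases are named beside the values of members described singly.

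The libraries held 16123108 to 19896988 reads on genes, of which the members took between 0.481% and 0.547% in the controls and between 0.547% and 0.571% in the cKO libraries. The targeted gene does not separate the groups in these libraries. Bmpr1a was at 10.6, 11.7, 8.74 and 9.52 FPKM in the controls and at 12.01, 12.03, 10.2 and 10.4 in the libraries labelled cKO, in the order of their replicate numbers as throughout (log2 difference 0.13, limma adjusted p = 0.56), so it gives no check of the labels. The summed level of 6 alveolar markers was 4038 to 5910 FPKM in the controls and 8973 to 16023 in the libraries labelled cKO, with 5 of the 6 genes higher at an unadjusted p under 0.05. The share of reads on mitochondrial genes was 1.83% to 1.93% in the controls and 2.14% to 2.36% in the cKO libraries. The sum of 5 adipocyte markers was 1.13 to 2.15 FPKM in the controls and 2.71 to 6.37 in cKO. The sums of 8 luminal, 9 myoepithelial, 6 fibroblast, 5 endothelial, 5 macrophage, 6 lymphocyte and 5 erythroid markers overlapped between the groups. The myoepithelial sum, for the layer in which Cre is driven, was 1983 to 2701 FPKM in the controls and 1808 to 2504 in cKO, with 1 gene higher and 2 lower, and the luminal sum was 5299 to 6851 and 5318 to 7143. The fibroblast sum was 441 to 920 and 299 to 713, the macrophage sum 842 to 975 and 781 to 929, the endothelial sum 74.8 to 85.7 and 54.6 to 82.0, and the erythroid sum 22.5 to 30.0 and 14.5 to 28.0. At an unadjusted p under 0.05, 2 endothelial, 2 macrophage, 2 lymphocyte and 2 erythroid genes were lower and 0 higher, and 2 luminal genes were higher and 0 lower. In a whole digest, fewer cells of a type and less RNA per cell cannot be told apart, and the part of the alveolar and adipocyte markers in the lncRNA values was not tested.

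The lncRNAs were low beside coding genes. Their mean FPKM had a median of 2.06 (quartiles 1.38 and 3.62), against a median of 7.05 over the 11066 protein-coding genes that reached the same limit. Only 38 members had a mean of 10 or more, 227 lay between 1 and 2, and the 12 highest held 31.2% of the summed level. The SD of log2(FPKM + 1) within groups had a median of 0.208 over the members and of 0.132 over those coding genes. Just inside the limit of 1 stood Gm20186 (mean 1.00 FPKM), Gm16098 (1.00) and Gm16235 (1.01), and just outside it Gm10605 (1.00, unrounded below the limit), Gm47666 (0.999) and 4930473A02Rik (0.997).

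Malat1, a nuclear RNA of the splicing speckles, had the highest level of all members. Its control libraries held 117, 103, 76.1 and 80.3 FPKM and its cKO libraries 137, 107, 115 and 167, so that the groups overlapped. The log2 difference of 0.48 ± 0.18 (SE) had a limma p of 0.023, or 0.22 after adjustment, and it was 0.14 between replicates 1 and 2 and 0.82 between replicates 3 and 4. Neat1, the RNA scaffold of the paraspeckle, lies beside Malat1 on chromosome 19 and stood at 26.0 ± 4.02 FPKM in the controls and 31.5 ± 5.02 in cKO (SD, n = 4 each). Its log2 difference was 0.26, with an adjusted p of 0.37. Tug1, the remaining nuclear-retained member, was at 8.03 to 9.76 FPKM in the controls and 9.57 to 10.9 in cKO (log2 difference 0.16, adjusted p = 0.31), and shares 4.96% of its exon bases with Morc2a. All 3 were on average higher in cKO, and none passed the adjusted test.

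The genes for paraspeckle proteins, which are coding and not members, were listed beside Neat1. Of 6 tested, with 1 further gene of the list not reported here, 1 was higher and 2 were lower in cKO at an unadjusted p under 0.05, beside 8.85% and 7.53% of all genes tested, and none at an adjusted p under 0.05. Tardbp, which encodes the RNA-binding protein TDP-43, was at 33.2 ± 1.01 FPKM in the controls and 40.3 ± 2.77 in cKO, and Sfpq, an essential paraspeckle protein, was at 141 ± 6.79 and 123 ± 3.99 (SD, n = 4 each). The groups did not overlap for either gene. Pspc1 was the other lower gene, with a log2 difference of -0.23.

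Gm26917 was the fourth-highest member by mean and had the largest difference among the 12 highest. The controls were at 45.4, 42.7, 38.4 and 79.5 FPKM and the cKO libraries at 80.8, 70.2, 78.7 and 141, so that control replicate 4 lay among the cKO libraries. The log2 difference was 0.84 ± 0.27 (SE), with a limma p of 0.012, or 0.17 after adjustment. The gene occupies chr17:39843013-39846341 on the plus strand, a single exon at the place where the GRCm38 assembly holds a copy of the ribosomal RNA precursor. The next gene, CT010467.1, starts 12 bases beyond its end and is annotated as rRNA. It stood at 1.97, 1.73, 2.08 and 2.66 FPKM in the controls and at 3.13, 1.92, 3.24 and 4.39 in cKO, highest in the same library of each group as Gm26917. The part of ribosomal RNA reads in the Gm26917 values was not tested.

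The other members among the 12 highest did not separate the groups. Gm10076 (chr14:105681828-105682211) was at 161 FPKM in control replicate 1 and between 65.4 and 89.6 in the other controls, against 62.8 to 109 in cKO. Of its 50-base words, 69.9% also occur in transcripts of Rpl41, a ribosomal protein gene, so its reads may belong to either gene. For 2900097C17Rik, 39.5% of the words occur in other genes, and its log2 difference was -0.15 with an adjusted p of 0.46. Plet1os (log2 difference 0.13) shares 21.0% of its exon bases with Plet1, and Gm49172 (-0.24, adjusted p = 0.34) shares 13.0% with Ano6. Epb41l4aos was at 40.5 to 59.0 FPKM in the controls and 45.1 to 53.1 in cKO. AW112010, an interferon-induced RNA known from immune cells, was at 29.6 to 37.8 FPKM in the controls and 22.6 to 32.2 in cKO (log2 difference -0.20, adjusted p = 0.45), and 1110038B12Rik differed by 0.04.

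**Figure D1:**
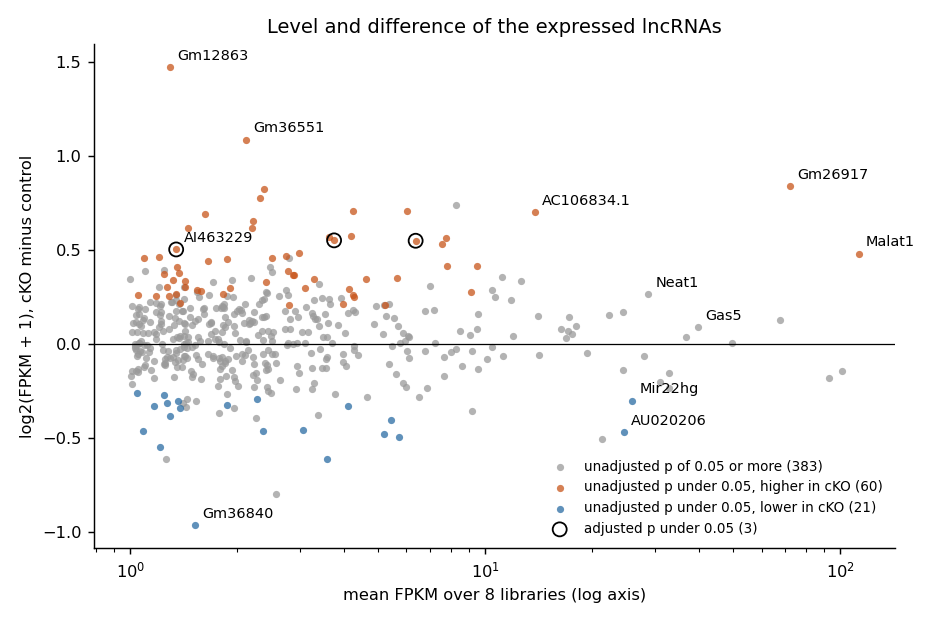
Each point is a member, with its mean FPKM over the 8 libraries on a log axis and its log2(FPKM + 1) difference, cKO minus control, on the linear axis; colours mark an unadjusted limma p under 0.05 and rings an adjusted p under 0.05. The 60 orange points outnumber the 21 blue ones, and the 3 ringed members have means under 10 FPKM.

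More members were higher than lower in cKO. In the whole-table limma test on log2(FPKM + 1) of 15143 genes, 3 of the 464 members passed an adjusted p of 0.05, all of them higher, beside 0.892% of all genes tested. Of these 3, AI463229 reached the limit of membership through the cKO libraries alone. At an unadjusted p under 0.05, 60 members were higher, beside 8.85% of all genes tested, and 21 were lower, beside 7.53%. As shares of the members these are 12.9% and 4.53%. All 4 cKO libraries lay above all 4 controls for 43 members (9.27%, beside 6.1% of all genes tested) and below them for 9 (1.94%, beside 4.6%). The median log2 difference was 0.05 over the members and 0.00 over all genes tested, and 279 members (60.1%) had a difference above 0. The limit of 1 FPKM is on the mean of all 8 libraries: 25 members had a control mean under it, 8 of them among the 60 higher, and 13 had a cKO mean under it, 5 of them among the 21 lower. Between replicates 1 and 2 the members' median was 0.02, and between replicates 3 and 4 it was 0.07. When the values were rescaled to the same sum per library (TPM), 45 members were higher and 25 lower, a share of 64.3% higher in place of 74.1%, while the share over all genes went from 54.0% to 32.2%. In that scaling 5.2% of all genes tested were higher and 10.9% lower, and the median log2 difference was 0.010 over the members and -0.05 over all genes.

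By class, of the 164 GENCODE lincRNAs, 32 (19.5%) were higher and 7 lower at an unadjusted p under 0.05, against 18 higher and 11 lower of 178 antisense genes and 8 higher and 2 lower of 66 processed transcripts. By position, 18 of the 87 members over 10 kb from a coding gene were higher and 6 lower, as were 13 and 4 of the 76 within 10 kb. Of the 114 that start within 1 kb of a divergent coding start, 13 were higher and 1 was lower, and the single lower member is Gm9887. Of the 149 that overlap a coding gene on the other strand, 13 were higher and 7 lower. No difference between these classes was tested. Without every member whose gene body overlaps another expressed gene, 184 members remained, of which 33 were higher and 9 lower.

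**Figure D2:**
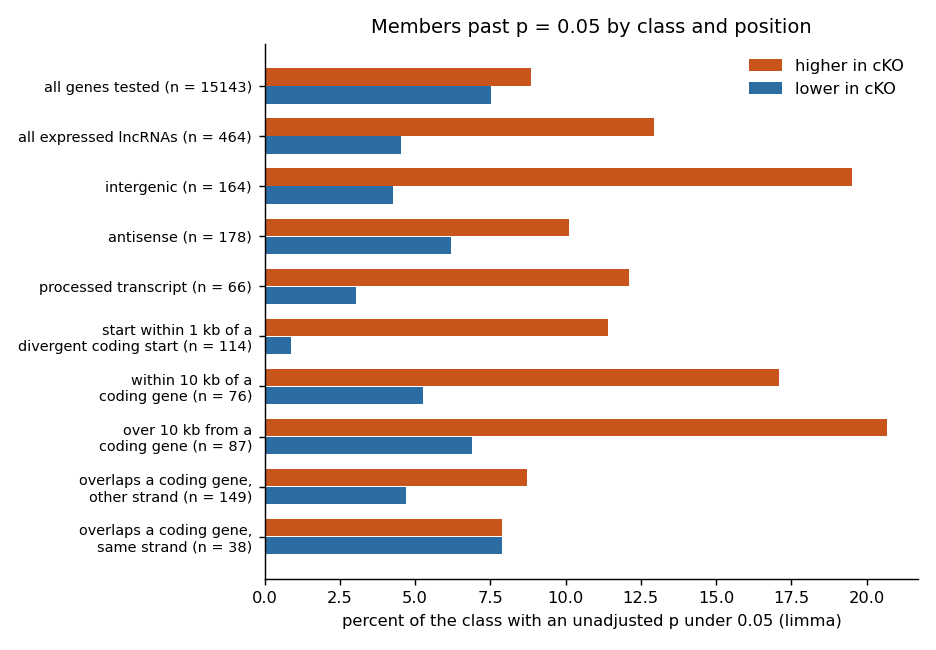
Bars give the percent of each class with an unadjusted limma p under 0.05, higher (orange) or lower (blue) in cKO, with the class size beside its name. All genes tested stand at 8.85% and 7.53%, and the intergenic members at 19.5% and 4.27%.

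AI463229 had the smallest adjusted p of the members, but with a control mean of 0.944 FPKM it reached the limit of membership through the cKO libraries alone. A higher cKO level was thus built into the choice of AI463229 as a member. It is an intergenic gene of 4 exons at chr13:37657022-37667734 on the minus strand, 110666 bases from Rreb1, the nearest expressed coding gene. Control libraries held 0.832, 0.942, 1.15 and 0.849 FPKM, and cKO libraries 1.91, 1.70, 1.70 and 1.70. All cKO libraries lay above all controls, and 38 to 97 reads stood behind each value. The mean FPKM rose 1.85-fold, with a log2 difference of 0.50 ± 0.08 (SE) and an adjusted p of 0.034 (limma). Rreb1, a zinc finger factor, was at 3.48 and 3.52 FPKM in the groups, a log2 difference of 0.01.

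The other called members, Gm45151 and 4732496C06Rik, are neighbours on chromosome 7. Gm45151 (chr7:116543656-116545755, plus strand, 2 exons) begins 3072 bases beyond the end of Nucb2, and 4732496C06Rik (chr7:116546865-116549364, plus strand, 1 exon) begins 1110 bases beyond Gm45151. Nucb2 encodes nucleobindin 2, a calcium-binding protein and the precursor of nesfatin, and lies on the same strand. Gm45151 was at 5.84, 5.27, 4.02 and 4.86 FPKM in the controls and at 8.29, 7.15, 7.25 and 8.24 in cKO (log2 difference 0.55 ± 0.10 SE, adjusted p = 0.0496). 4732496C06Rik was at 3.28, 2.86, 2.44 and 2.83 FPKM in the controls and at 4.93, 4.87, 3.78 and 5.02 in cKO (log2 difference 0.55 ± 0.10 SE, adjusted p = 0.0465). Neither gene's groups overlapped. Nucb2 itself rose from 30.6 to 50.3 FPKM, a log2 difference of 0.69 with an adjusted p of 0.029. Whether the reads of the downstream genes come from transcripts of their own or from Nucb2 was not tested. AV356131, a bidirectional-promoter lncRNA that starts 126 bases from Pik3c2a and lies 99332 bases before Gm45151, was at 0.94 ± 0.343 FPKM in the controls and 1.97 ± 0.431 in cKO (SD, n = 4 each). It reached the limit of membership through the cKO libraries, so a higher cKO level was built into its choice.

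These 3 calls are narrow. Leaving out any single library but cKO replicate 3 left 0 members called by limma. At an unadjusted p under 0.05, 56 to 73 members were still higher and 17 to 25 lower over the 8 omissions. Without cKO replicate 3, 3 were called, of which 4732496C06Rik is 1 of those above and AC106834.1 and Gm28077 are others. The calls over all genes tested fell as well, from 135 to between 0 and 9 without a control library. They fell to between 11 and 78 without a cKO library, with 77 without cKO replicate 3. Adjusted p-values over the 8 omissions ranged from 0.057 to 0.106 for AI463229, from 0.068 to 0.128 for Gm45151 and from 0.047 to 0.127 for 4732496C06Rik, while every difference remained positive. In a fit with a block for the replicate number, none of the 3 passed (adjusted p of 0.053 to 0.072) and Gm26917 was the only member called (adjusted p = 0.028), beside 0.33% of all genes. limma-voom on the reads recovered from the values called 7 members, 2 of the 3 among them, beside 1.66%, and a block for replicates 1 and 2 against 3 and 4, added after the data were seen, called 17, all 3 among them, beside 2.92%.

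**Figure D3:**
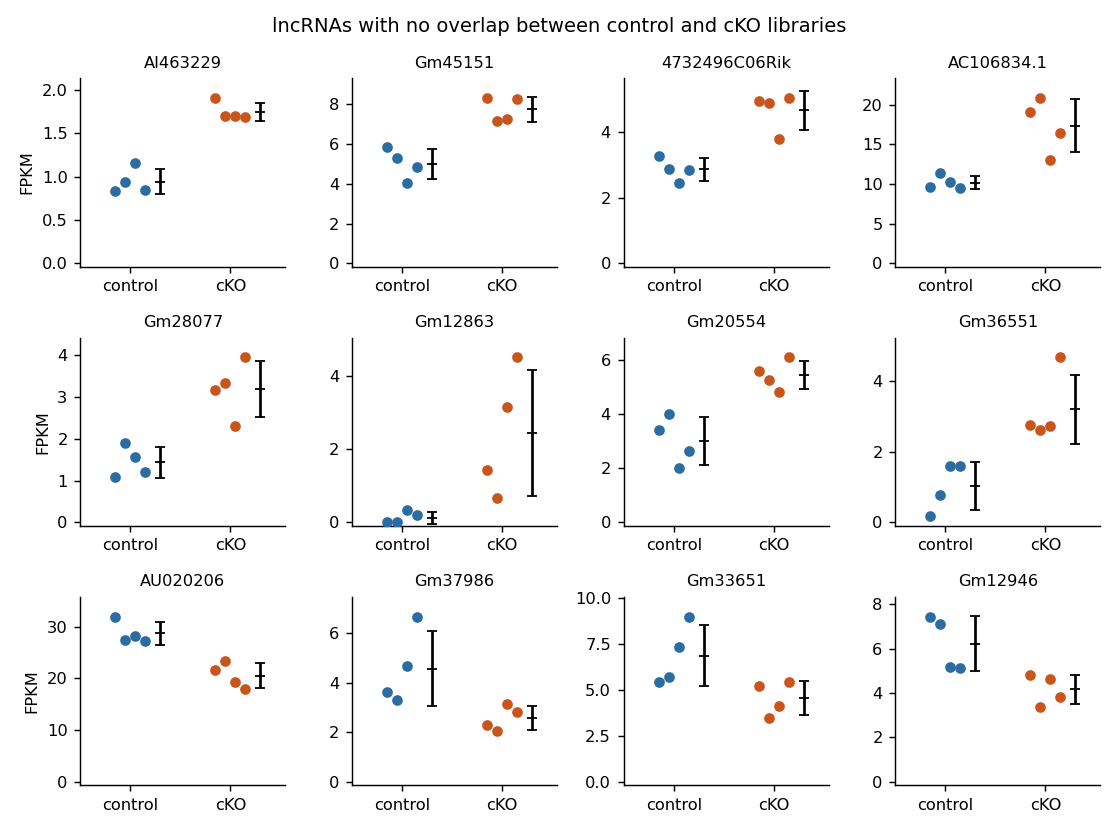
FPKM of 12 members in each library, with control in blue and cKO in orange, and the mean ± SD of 4 libraries in black beside each group. In no panel do the groups overlap; the upper 8 panels are higher in cKO and the lowest row is lower.

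An unadjusted p under 0.05 with all cKO libraries above the controls was met by 41 members. Over all genes tested, 8.85% and 6.1% met each condition alone, and the share with both was not counted. Among the 41, Gm12863 had the largest difference. It reached the limits of membership and of the test through the cKO libraries alone, so that a difference was built into its choice. It was read 0, 0, 3 and 2 times in the controls and 15, 6, 27 and 45 times in cKO, which is 0 to 0.334 FPKM against 0.679 to 4.52. The log2 difference was 1.47 ± 0.33 (SE), with an adjusted p of 0.081. It is an antisense gene at chr4:118954274-118954919 on the minus strand, 6659 bases from Lao1 on the other strand. Lao1 encodes an L-amino acid oxidase that is known from milk, and it stood at 5.11 ± 2.16 FPKM in the controls and 66.4 ± 36.03 in cKO (SD, n = 4 each). Its log2 difference was 3.40, with an adjusted p of 0.020 (limma).

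Gm36551 was at 0.192, 0.77, 1.59 and 1.598 FPKM in the controls and at 2.76, 2.63, 2.73 and 4.67 in cKO, from 1 to 26 reads (log2 difference 1.09, adjusted p = 0.093). AC106834.1, a 12-exon intergenic gene at chr19:21121152-21248451, was better covered, with 507 to 1122 reads. It stood at 9.64, 11.4, 10.2 and 9.48 FPKM in the controls and at 19.2, 20.8, 13.1 and 16.4 in cKO, which is 1.71-fold higher by the means (log2 difference 0.70 ± 0.13 SE, adjusted p = 0.051). Gm28077, 525712 bases from Tshz3, was at 1.09 to 1.91 FPKM in the controls and at 2.31 to 3.95 in cKO (log2 difference 0.78, adjusted p = 0.051). Gm4544 near Atp5g2 (log2 difference 0.82), Gm38079 (0.71), which begins 232 bases beyond the end of Tlr5 on the same strand, and Gm13647 (0.62), which ends 219 bases before the start of Itga6 on the same strand, had adjusted p-values of 0.081 to 0.099. For Tlr5 and Itga6 the log2 differences were 0.22 and 0.09.

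Gm20554 starts 256 bases from Irx2, a homeobox gene that is transcribed the other way. The controls held 3.41, 4.03, 2.005 and 2.65 FPKM of it and the cKO libraries 5.59, 5.28, 4.85 and 6.11 (log2 difference 0.71, adjusted p = 0.072), while Irx2 was at 50.4 and 55.4 FPKM in the groups. 0610043K17Rik (log2 difference 0.66, adjusted p = 0.11) and E130102H24Rik (0.42, adjusted p = 0.051) overlap head to head upstream of Ak4, an adenylate kinase of mitochondria whose own log2 difference was 0.39 with an adjusted p of 0.15.

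An unadjusted p under 0.05 with all cKO libraries below the controls was met by 9 members. Over all genes tested, 7.53% and 4.6% met each condition alone, and the share with both was not counted. AU020206, a 3-exon intergenic gene at chr7:75769038-75782099 on the minus strand, had the smallest p and the highest level of the 9. The controls were at 32.0, 27.4, 28.2 and 27.2 FPKM and the cKO libraries at 21.7, 23.3, 19.2 and 17.9, from 974 to 1767 reads. The log2 difference of -0.47 ± 0.09 (SE) had an adjusted p of 0.058. Akap13, a scaffold protein gene 14429 bases away on the other strand, had a log2 difference of -0.28 with an adjusted p of 0.28. Gm37986 was at 3.32 to 6.68 FPKM in the controls and 2.06 to 3.12 in cKO (log2 difference -0.61, adjusted p = 0.15), although Hhipl2, which starts 3367 bases farther on the same strand, had a difference of 0.50. Gm33651 (-0.49), Gm12946 (-0.48), Gm40117 (-0.46), Gm9887 (-0.38), Gm35909 (-0.33), Gm28529 (-0.30) and Ppp1r18os (-0.27) had adjusted p-values of 0.13 to 0.23. Gm35909, with a cKO mean of 0.917 FPKM, reached the limit of membership through the controls. Gm40117, Gm9887, Gm28529 and Ppp1r18os share 25.5% to 42.0% of their exon bases with other genes. Gm9887 is 1 of the 4 members that GENCODE vM21 calls protein-coding.

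Promoters are shown for 4 members, 2 higher and 2 lower, whose RefSeq start lies within 25 bases of the start in the deposited table. The set was not ranked by difference, and Gm37986 (-0.61) and Gm33651 (-0.49) fell more than Gm35909 (-0.33). Each run holds 250 bases before the start and 50 after it, from RefSeq on GRCm38.p6, with matches to 4 motifs in capitals on either strand. The motifs were TTCNNNGAA, the STAT element, GGGCGG, the GC box of Sp1, GGCGCC, a GC-rich element of Smad1/5, and TATAAA, the TATA box.
Gm12863 promoter, chr4:118954870-118955169, minus strand: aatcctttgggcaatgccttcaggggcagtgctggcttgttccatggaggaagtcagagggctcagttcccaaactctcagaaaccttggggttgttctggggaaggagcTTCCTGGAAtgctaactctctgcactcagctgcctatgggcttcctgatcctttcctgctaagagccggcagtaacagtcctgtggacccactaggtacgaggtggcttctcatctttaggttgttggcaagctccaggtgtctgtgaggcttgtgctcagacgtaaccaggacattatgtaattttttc
Gm20554 promoter, chr13:72628515-72628814, minus strand: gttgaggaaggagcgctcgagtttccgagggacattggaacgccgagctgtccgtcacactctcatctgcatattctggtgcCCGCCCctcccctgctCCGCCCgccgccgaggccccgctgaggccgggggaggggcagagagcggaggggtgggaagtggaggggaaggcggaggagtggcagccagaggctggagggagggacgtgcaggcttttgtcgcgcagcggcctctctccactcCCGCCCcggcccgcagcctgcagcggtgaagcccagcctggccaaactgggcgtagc
AU020206 promoter, chr7:75782071-75782370, minus strand: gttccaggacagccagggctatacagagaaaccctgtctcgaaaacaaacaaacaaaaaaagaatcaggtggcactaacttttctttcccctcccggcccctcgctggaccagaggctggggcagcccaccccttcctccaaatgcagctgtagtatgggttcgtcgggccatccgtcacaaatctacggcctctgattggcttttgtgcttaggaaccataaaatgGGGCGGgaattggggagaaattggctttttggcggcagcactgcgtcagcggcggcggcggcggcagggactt
Gm35909 promoter, chr14:105517846-105518145, plus strand: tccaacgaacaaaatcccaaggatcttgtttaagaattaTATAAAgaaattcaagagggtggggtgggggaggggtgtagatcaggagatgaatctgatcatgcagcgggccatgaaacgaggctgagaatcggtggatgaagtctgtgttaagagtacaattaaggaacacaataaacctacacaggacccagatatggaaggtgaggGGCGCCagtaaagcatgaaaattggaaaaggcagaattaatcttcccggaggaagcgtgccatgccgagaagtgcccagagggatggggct
In these runs, Gm12863 holds 1 match to the STAT element, Gm20554 holds 3 to the GC box and AU020206 holds 1 to the GC box. Gm35909 holds 1 TATAAA, near the upstream end of its run and far from the start, and 1 GGCGCC.

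Over the 168 members whose RefSeq start lies within 1000 bases of the deposited start, the GC box was in 52.2% of the 23 higher members, in 59.7% of the 139 with an unadjusted p of 0.05 or more, and in 35.7% of all 32851 promoters of the table. GGCGCC was in 26.1%, 22.3% and 11.9% of the same sets, and the STAT element in 8.7%, 5.04% and 8.3%. TATAAA was in 17.4%, 10.1% and 13.6%. Of the lower members 6 could be matched, of which 2 held each motif. These are matches of letters and not bound sites.

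Of 24 listed hosts of snoRNAs, 22 are in the table and 17 are members. snoRNAs guide the chemical modification of ribosomal RNA, and their hosts are spliced and then degraded. Of the 19 listed hosts that could be tested, 0 passed an unadjusted p under 0.05 by limma in either direction, beside 8.85% higher and 7.53% lower of all genes tested, and 0 passed the adjusted p, beside 0.892%. Their log2 differences ranged from -0.14 to 0.15 with a median of 0.01. Gas5, which holds 10 genes that the table labels as snoRNAs, was at 36.0 to 41.5 FPKM in the controls and 38.5 to 43.6 in cKO. 2410006H16Rik, the host of Snord49a, Snord49b and Snord65, had the lowest difference of the list (-0.14) and Zfas1 the highest (0.15). Snhg1 was at 19.7 ± 1.42 and 19.01 ± 0.99 FPKM, Snhg5 at 17.2 ± 1.41 and 17.8 ± 0.91, and Snhg12 at 10.4 ± 0.472 and 9.85 ± 0.823 in controls and cKO (SD, n = 4 each). A p that misses the threshold does not show that they were equal, and the SE of their differences was at most 0.18.

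By coordinates, 23 members hold a snoRNA gene in their body on the same strand, and 2 of these, Gm15832 (log2 difference 0.21, adjusted p = 0.25) and 2700038G22Rik (0.29, adjusted p = 0.28), were higher at an unadjusted p under 0.05 and 0 lower. These are 8.70% of the hosts, beside 8.85% of all genes tested. Neither was on the list, and Gm15832 shares 38.6% of its exon bases with Rnf149. AI506816 holds Mir3096, which the table labels as a snoRNA, and was at 22.4 to 25.4 FPKM in the controls and at 23.7, 4.68, 27.2 and 21.4 in cKO. Its log2 difference of -0.50 rests on cKO replicate 2 and was 0.03 without it. These 3 genes, the miRNA hosts found by coordinates below and the 3 members named last were chosen after their values were seen.

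miRNAs are cut from longer transcripts, so a host's level is a level of the precursor and not of the mature RNA, which was not measured. Of the members, 21 hold a miRNA gene in their body on the same strand, of which 3 were higher and 1 was lower at an unadjusted p under 0.05, beside the 8.85% and 7.53% of all genes. The hosts include those of miRNAs known from epithelia and from the mammary gland. The mature sequences below are from RefSeq on GRCm38.p6, 5′ to 3′, for the hosts with a limma p under 0.05, for the second miR-200 host and for the cluster of Mir17hg, whose groups overlapped, with bases 2 to 8, the seed that pairs with targets, in capitals.
miR-200b-3p: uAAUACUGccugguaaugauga
miR-200c-3p: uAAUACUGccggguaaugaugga
miR-429-3p: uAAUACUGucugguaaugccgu
miR-200a-3p: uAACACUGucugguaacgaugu
miR-141-3p: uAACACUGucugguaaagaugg
let-7a-5p: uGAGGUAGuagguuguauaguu
let-7d-5p: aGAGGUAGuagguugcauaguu
let-7f-5p: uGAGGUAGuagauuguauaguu
miR-101a-3p: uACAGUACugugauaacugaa
miR-22-3p: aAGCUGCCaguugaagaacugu
miR-17-5p: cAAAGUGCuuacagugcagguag
miR-20a-5p: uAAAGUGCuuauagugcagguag
The first 3 share the seed AAUACUG and the next 2 AACACUG, which is 1 base away and makes up the rest of the miR-200 family. The let-7 members share GAGGUAG, and miR-17-5p and miR-20a-5p share AAAGUGC.

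The hosts of both miR-200 clusters had the same log2 difference to 2 decimals. Gm13648 (chr4:156052715-156059802, minus strand), which holds Mir200b, Mir200a and Mir429, was at 4.32, 3.19, 4.16 and 4.06 FPKM in the controls and at 5.06, 6.20, 4.55 and 5.29 in cKO. The groups did not overlap, and the log2 difference was 0.35 ± 0.10 (SE), with a limma p of 0.0090, or 0.16 after adjustment. Gm15884 (chr6:124715573-124718831, minus strand), which holds Mir200c and Mir141, was at 1.17 to 2.78 FPKM in the controls and 2.09 to 2.92 in cKO, with overlap (log2 difference 0.35 ± 0.17 SE, adjusted p = 0.35). It shares 21.9% of its exon bases with Phb2, while Gm13648 lies over Ttll10 without a shared exon base. The miR-200 family keeps cells epithelial by repressing Zeb1 and Zeb2.

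E130102H24Rik, the host of Mir101a at chr4:101346531-101356735 on the minus strand, had the smallest p of the miRNA hosts. The controls held 7.04, 8.49, 7.61 and 8.76 FPKM and the cKO libraries 11.7, 11.0, 10.6 and 10.4, all above the controls. 6720427I07Rik, the host of Mirlet7a-1, Mirlet7d and Mirlet7f-1, was at 0.952 to 1.31 FPKM in the controls and 1.46 to 1.62 in cKO (log2 difference 0.27, adjusted p = 0.15), also without overlap. Mir22hg, the host of miR-22, was the single lower one of these 21. It was at 29.5, 23.7, 34.0 and 27.7 FPKM in the controls and at 26.5, 21.3, 20.3 and 24.1 in cKO, with overlap (log2 difference -0.30 ± 0.12 SE, adjusted p = 0.25), and 10.7% of its exon bases are shared with Tlcd2.

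The other members among the hosts overlapped between the groups. Mir17hg, the host of the miR-17 to miR-92a-1 cluster, was at 17.4 ± 1.34 FPKM in the controls and 18.7 ± 0.938 in cKO, and Mir155hg at 6.29 ± 0.189 and 5.93 ± 0.391 (SD, n = 4 each). Gm49890, which holds Mir31, had a log2 difference of -0.21, 4631405K08Rik, which holds Mir205 of basal cells, of -0.22, 3110039I08Rik, which holds Mir100, Mirlet7a-2 and Mir125b-1, of 0.07, Gm27028 with Mir30c-2 of 0.14 and Dleu2 with Mir15a and Mir16-1 of 0.11, and none had an unadjusted p under 0.05. Mir142hg, the host of a miRNA of blood cells, was at 0.858 to 2.66 FPKM in the controls and 0.225 to 2.002 in cKO from 1 to 12 reads (log2 difference -0.61, adjusted p = 0.35). Its cKO mean of 0.818 FPKM is under the limit of membership, which it reached through the controls. The summed level of 6 lymphocyte markers was 12.8, 5.62, 27.1 and 4.33 FPKM in the controls and 4.76, 3.76, 2.47 and 4.36 in cKO. The sum of 5 macrophage markers was 842 to 975 and 781 to 929. The part of either cell type in the Mir142hg values was not tested. Carmn, an RNA of smooth muscle that is transcribed beside Mir143 and Mir145, was at 1.52 ± 0.346 FPKM in the controls and 1.02 ± 0.24 in cKO (SD, n = 4 each), with a log2 difference of -0.31 and an adjusted p of 0.27. Of the 17 listed miRNA hosts, 15 are in the table, 7 could be tested and 6 are members. At an unadjusted p under 0.05, 3 of the 7 were lower and 0 higher, beside 7.53% and 8.85% of all genes tested: the members Mir22hg and Carmn, and Mirg, which is under the limit of membership and whose groups did not overlap. None passed the adjusted p.

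**Figure D4:**
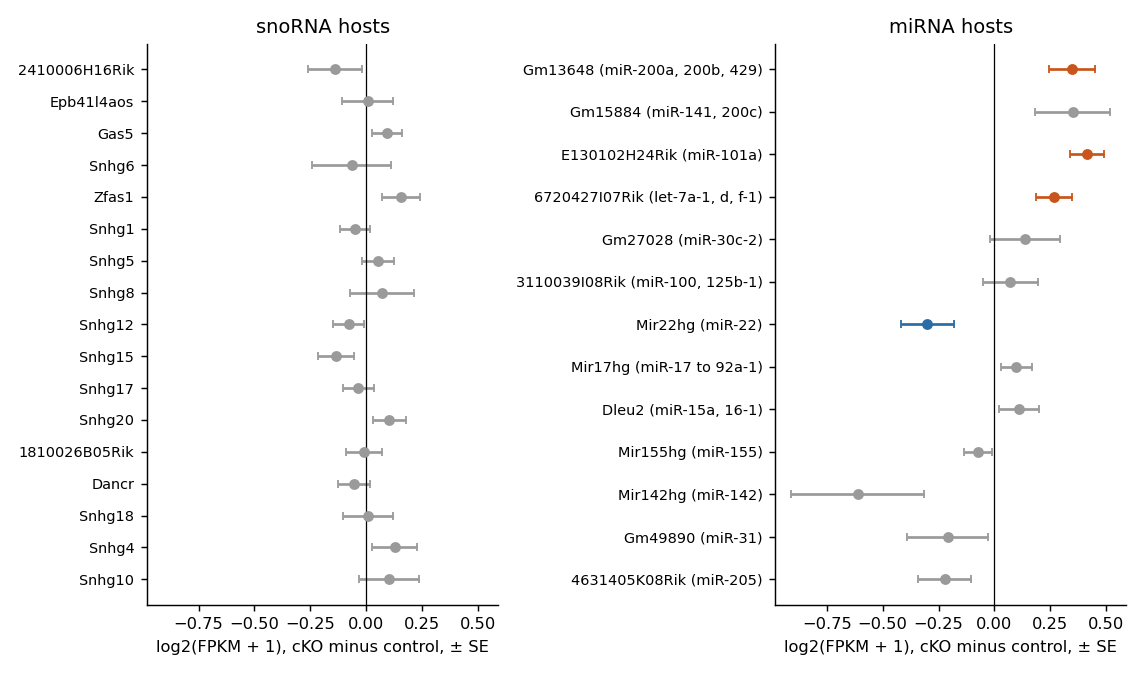
Points give the log2(FPKM + 1) difference, cKO minus control, of the 17 snoRNA hosts of the list and of 13 miRNA hosts (the miRNAs in parentheses), with bars of ± SE of the limma fit; colour marks an unadjusted p under 0.05. The snoRNA hosts lie between -0.14 and 0.15, and the miRNA hosts between -0.61 (Mir142hg, whose cKO mean is under 1 FPKM) and 0.42.

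Most lncRNAs on the list of those with a described regulatory role had values under the limit of the test. Of 33 listed, 28 are in the table, 8 are members and 19 fell under the test's limit of 0.5, and 2 of the 8 members were higher at an unadjusted p under 0.05, Gm26917 and Airn, and 0 lower, beside 8.85% and 7.53% of all genes tested. Airn, the paternally expressed antisense RNA that silences Igf2r in cis, was at 1.57, 1.38, 1.13 and 1.24 FPKM in the controls and at 1.93, 1.99, 1.72 and 1.68 in cKO. The groups did not overlap, with a log2 difference of 0.28 ± 0.09 (SE) and an adjusted p of 0.16. Igf2r was at 12.03 FPKM in the controls and 13.6 in cKO, a log2 difference of 0.16. Peg13, an imprinted RNA inside Trappc9, had a log2 difference of -0.21 (adjusted p = 0.34), Crnde of -0.08, Bvht of 0.08, Morrbid of 0.04 and Ptprv of 0.01. Pinc, a mammary RNA of pregnancy, was at 0.268 ± 0.0963 FPKM in the controls and 0.0875 ± 0.0443 in cKO (SD, n = 4 each), under the limits of membership and of the test. Hotair was listed at 0 in all 8 libraries, but so were Terc, Rmrp and Rpph1, RNAs that dividing or all cells use, so a 0 in this table does not show that a gene is silent.

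Members and their nearest coding genes were set side by side. Over the 464 pairs, which use 435 coding genes and the same 8 libraries, the log2 differences had a Pearson r of 0.363 and a Spearman rho of 0.218, and without Gm12863 and Lao1 an r of 0.264. Of the 60 higher members, 15 had a nearest coding gene that was higher at an unadjusted p under 0.05 and 2 had a lower one. Of the 21 lower members, 4 had a lower and 1 a higher neighbour, and of the 383 others 29 had a higher and 35 a lower one. For the 47 members that lie within 10 kb of a coding gene on the same strand without overlap, 4 of 6 higher members had a higher neighbour, and 2 of these 4 share Nucb2 as that neighbour. Of the 4 lower members there, 1 had a lower and 1 a higher neighbour, and of the 37 others 4 had a higher and 2 a lower one, beside 8.85% and 7.53% of all genes tested. Where the groups of a member did not overlap, its coding neighbour could be level, as with AI463229 and Rreb1, or lie on the other side, as with Gm36551 (1.09) and Mepce (-0.25, adjusted p = 0.18), which are 69390 bases apart.

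**Figure D5:**
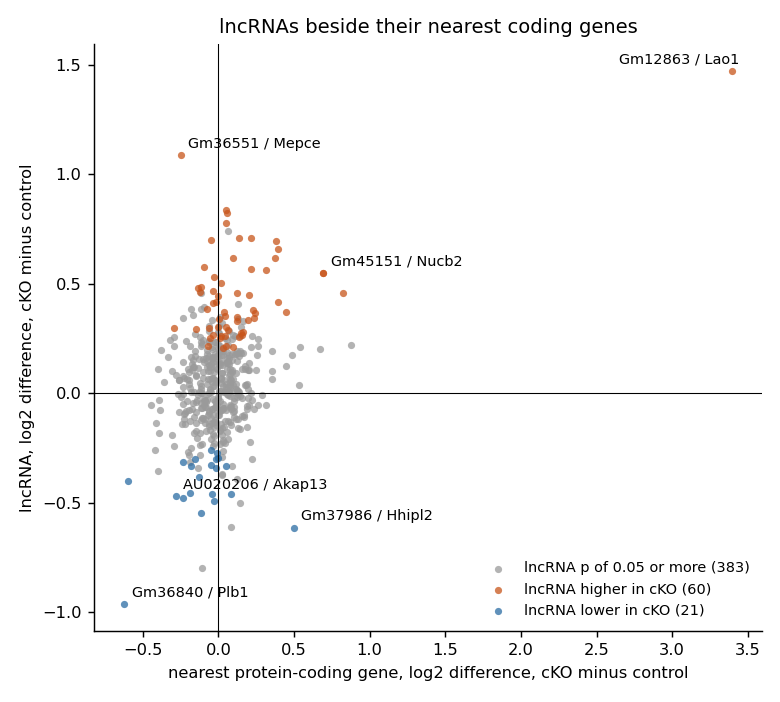
Each point is a member with its log2 difference, cKO minus control, on the vertical axis and that of its nearest protein-coding gene on the horizontal axis, coloured by an unadjusted limma p of the member under 0.05. Most pairs lie within 0.5 of 0 on the horizontal axis, and Gm12863 with Lao1 stands apart at 1.47 and 3.40.

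A few members varied widely between mice of a group. Gm43305 had the widest spread within groups of all members, from 0.334 to 14.5 FPKM in the controls and from 2.50 to 21.8 in cKO (log2 difference 0.74, adjusted p = 0.69). 6430562O15Rik, which shares exon bases with Mrps27, was at 0.433, 0.375, 4.55 and 2.06 FPKM in the cKO libraries and at 2.60 to 5.05 in the controls (log2 difference -0.80, adjusted p = 0.40). Gm36840 had the lowest difference of all members (-0.96, adjusted p = 0.23), from 4.85 FPKM in control replicate 2 and 0 in cKO replicate 2, and it overlaps Plb1, whose difference was -0.62 with an adjusted p of 0.14. The cKO mean of Gm36840 was 0.695 FPKM, so it reached the limit of membership through the controls and a lower cKO level was built into its choice.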

How the data were processed

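Values came from 1 deposited table, FPKM of 55933 genes by 8 libraries. The authors made NEBNext Ultra libraries from total RNA, mapped the reads with Hisat2 to GRCm38 and computed the FPKM, and the labels' processing notes add StringTie 1.3.3b, featureCounts 1.5.0-p3 and the build mm9. The coordinates in the table are those of GRCm38: 99.68% of 55394 genes had the same start and end in GENCODE vM21.

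Low FPKM values were whole multiples of the value of 1 read for 100% of entries within a tolerance of 0.01, and reads per gene come from them. The library size that these values imply was not the number of reads on genes. It was above that number in control replicates 1 to 3 and cKO replicates 1 and 2, and below it in the other libraries. Control replicate 1 had 1.733e+07 against 16642619 reads, and cKO replicate 4 had 1.857e+07 against 19896988. The part of this scaling in the differences was not tested beyond the alternative scalings. The test was limma 3.58.1 in R 4.3.3 on log2(FPKM + 1), with a trend, over the 15143 genes with a mean of at least 0.5, all members among them, and Benjamini-Hochberg adjustment over all of these. A fold on this scale understates the change of low genes. The p-values set a difference against the spread within groups of 4 libraries, which limma adjusts with the trend over all genes tested. The scripts were tested on simulated data. No pair of libraries agreed within counting noise (chi-square per degree of freedom of at least 8.92).

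The members and lists were chosen with earlier results of these data known. Named were the 12 highest members, those with an adjusted p under 0.05, in each direction up to 10 with the largest difference among those with an unadjusted p under 0.05 and no overlap, the members of the role lists and the 3 just above the limit. A further 14 were chosen after their values were seen. Words of 50 bases of each member's exons were looked up in all other GENCODE vM21 transcripts for 462 members. Alternatives were another pseudocount, filter, scaling, trend setting or member limit, a block by replicate number, limma-voom, and leaving out each library. Of the list of paraspeckle protein genes, 1 gene is not reported here and was left out of its counts.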

Additional observations from a re-analysis of the deposited data

Results flagged for a closer look

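In 162 groups of 4 libraries, the highest or lowest library stood apart from its group by Dixon's limit 8 times, and chance gives about 1 in 20 groups. 4732496C06Rik was at 3.78 FPKM in cKO replicate 3, with the other cKO libraries at 4.87 to 5.02. AI463229 was at 1.91 FPKM in cKO replicate 1, with the others at 1.70. Gm26917 was at 140.7 FPKM in cKO replicate 4 and at 70.2 to 80.8 in the others. Gm36551 was at 4.67 FPKM in cKO replicate 4, from 26 reads, and at 2.63 to 2.76 in the others. Mir155hg was at 6.57 FPKM in control replicate 2 and at 6.16 to 6.21 in the other controls. 6430562O15Rik was at 5.05 FPKM in control replicate 1 against 2.60 to 2.76, and Gm36840 at 4.85 FPKM in control replicate 2, from 21 reads, against 1.38 to 1.71. Control replicate 4 held 18778823 reads on genes (1.87788e+07 in rounded form), above the other 3 controls. Library cKO replicate 4 is the highest for Gm26917 and for Gm36551, and no cause was tested.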

How the results depend on the processing

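The 3 called members became 0 with no filter on low values (31373 genes tested), 6 with the filter at a mean of 1, 1 without the trend, 1 with the replicate block (Gm26917, none shared with the 3), 7 by limma-voom on recovered reads and 17 with a term that sets replicates 1 and 2 apart from the rest, chosen after seeing the data. They were 4 with a pseudocount of 0.1, 2 in TPM and 3 in median-of-ratios scaling. Leaving out 1 library gave 0 to 3, with 0 for each library but cKO replicate 3. Over all genes tested, the 135 calls became 10 with no filter, 160 with the filter at 1, 115 without the trend and 50 with the replicate block. They were 252 by limma-voom and 442 with the term for replicates 1 and 2. A pseudocount of 0.1 gave 143 calls over all genes, TPM 132, median-of-ratios scaling 135 and leaving out 1 library 0 to 78. Samples of the same replicate number had correlations of 0.137, 0.11, 0.116 and 0.080 of their deviations, of which the last is under the limit of 0.1 set for pairs, and samples of unlike number reached 0.178, so the numbers were not taken as pairs. The counts of 60 higher and 21 lower members at an unadjusted p under 0.05 became 84 and 34 of the 819 lncRNAs from a mean of 0.5, 36 and 10 of the 237 from a mean of 2, and 33 and 9 of the 184 that overlap no other gene; leaving out 1 library gave 56 to 73 higher and 17 to 25 lower. The median log2 difference of 0.05 was 0.010 in TPM (all genes -0.05) and 0.03 to 0.07 without 1 library. Of the 78 named members, 62 reversed sign under none of the 17 alternatives, and the 16 that did had small differences or, for Gm10076 and AI506816, 1 library that stands apart. In TPM these log2 differences became negative: Epb41l4aos -0.054, 1110038B12Rik -0.023, Ptprv -0.026, Snhg5 -0.0051 and Snhg18 -0.036; by limma-voom Gm16235 was at -0.0027. Without 1 library the sign changed for Gm10076 (-0.36 to 0.071), Epb41l4aos (-0.082 to 0.094), 1110038B12Rik (-0.036 to 0.12), Gm16235 (-0.24 to 0.23), Bvht (-0.035 to 0.19), Crnde (-0.17 to 0.029), Ptprv (-0.069 to 0.058), Morrbid (-0.073 to 0.11), AI506816 (-0.74 to 0.033), 3110039I08Rik (-0.021 to 0.13), Snhg6 (-0.16 to 0.062), Snhg8 (-0.086 to 0.16), Snhg17 (-0.067 to 0.0051), 1810026B05Rik (-0.060 to 0.038) and Snhg18 (-0.063 to 0.087). The cause of these changes was not tested. Reads per member are few, with a median over members of 34.5 reads in the library where each member had the fewest, and the SE of a difference had a median of 0.13 over members and 0.10 over all genes tested.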
